A study of Mus musculus with 3 samples.

Results

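Genes of Wnt signalling were followed across the 3 arrays of a mouse sarcoma series. The genes were taken by symbol: those that start with Wnt, Fzd, Dkk, Sfrp, Rspo or Dvl and a digit, together with Lrp5, Lrp6, Axin1, Axin2, Apc, Ctnnb1, Lef1, Tcf7l1, Tcf7l2, Wif1, Frzb and Nkd1. This gave 58 probe sets, of 21789 with a single symbol and 28856 in all, for 57 genes of 19938. Tcf7, which belongs to the same set, was not analysed here. The set holds 19 Wnt ligands, 10 Frizzled receptors, the antisense gene Fzd10os that the symbol rule also takes in, 2 co-receptors, 4 R-spondins, 10 secreted antagonists, 8 cytoplasmic genes and 3 nuclear factors.

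The tumor array carried RNA of a tumor resected from a mouse with an inducible EWS/ATF1 transgene that had been given doxycycline for 3 months. The high-doxycycline array carried RNA of cultured tumor cells 24 h after exposure to 0.2 microg/ml doxycycline, and the control array carried RNA of cultured tumor cells at 24 h with 0 microg/ml. All 3 are labelled as tumor cells of a soft tissue sarcoma on a mixed C57/BL6, 129 and ICR background, so that the control also derives from the transgenic model. In the EWS/ATF1 fusion of human clear cell sarcoma, a stretch of EWSR1 is joined to the CREB-family transcription factor ATF1. The labels give both cultures one identifier and the tumor another. The labels name neither the promoter behind the transgene nor the age of the mice, and they do not say whether the cultures are a single clone. There was 1 array per group, so no difference could be tested, and every value below describes single arrays named by their labels.

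Markers of tissue went against these labels, and the labels of the tumor and control arrays may be exchanged. These files cannot settle that. An exchange would turn the direction of every difference between tumor and control, and would change which samples the high-doxycycline array is set against. Of 41 measured genes of macrophages, endothelium, fibroblasts and matrix, skeletal muscle, and smooth muscle and pericytes, 12 exceeded the array's median on the tumor array, 13 on the high-doxycycline array and 38 on the control array. Their summed intensity was 8410.3 on the tumor array, 8455 on the high-doxycycline array and 114629 on the control array. No marker was at 0, and the lowest stood at 60.7 on the tumor array, 52.4 on high doxycycline and 169.5 on control. The collagen gene Col1a2, for example, had intensities of 269.6 on the tumor array, 302 on the high-doxycycline array and 10078 on the control array. In RNA of mixed tissue, fewer cells of a type and less RNA per cell cannot be told apart. Markers of neural crest and pigment cells, the lineage of clear cell sarcoma in humans, did not follow this split as a list: 3 of 7 exceeded the median on the tumor array, 3 on the high-doxycycline array and 3 on the control array, and the pigment enzyme gene Tyr stood at 55.1 on all of them. In the same list Ngfr, a receptor of neural crest cells, had 4449.6 on the tumor array, 957 on the high-doxycycline array and 669 on the control array, 6.64-fold brighter on tumor than on control and 4.65-fold brighter than on high doxycycline. Of 4 adipocyte markers, 0 exceeded the median on the tumor array, 0 on high doxycycline and 3 on control, whereas of 4 keratinocyte markers 1 did on tumor, 1 on high doxycycline and 0 on control. That keratinocyte gene, Dsg3, had 305 on the tumor array, 918 on the high-doxycycline array and 123 on the control array. The values of the tumor and high-doxycycline arrays correlated at 0.991 (Pearson's r of log2 values over all probe sets, which are not independent), against 0.928 between high doxycycline and control and 0.917 between tumor and control.

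Wnt proteins are secreted, lipid-modified signals that bind a Frizzled receptor together with Lrp5 or Lrp6. Through Dishevelled (Dvl) they halt the complex of Axin, Apc and kinases that otherwise marks beta-catenin (Ctnnb1) for degradation, and beta-catenin then acts with TCF/LEF factors on target genes such as Axin2. Sfrp proteins, Frzb and Wif1 bind Wnts outside the cell, most Dkk proteins block the co-receptors, and R-spondins strengthen the signal by sparing Frizzled receptors from turnover. The pathway directs patterning, stem cell renewal and connective tissue growth, and its antagonists are widely made by mesenchymal cells.

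Among the 57 genes, 6 secreted antagonists were at least 2-fold dimmer on tumor and on high doxycycline than on control. Of these 6, 5 exceeded the median on the control array alone, so that the filter fixed their direction, though not their size. Fzd10, Fzd3 and Wnt10a were at least 2-fold dimmer on the tumor array than on the high-doxycycline array (9.09% of the Wnt genes that passed, beside 1.94% of all genes). In both comparisons with control, 2-fold differences in either direction were about as frequent as over all genes. The shares were 27.8% beside 25.9% for high doxycycline and 28.2% beside 28.7% for tumor. Differences are of log2(intensity + 1), so that folds understate changes of dim genes, and they were counted from 2-fold where the brighter array of a pair exceeded its own median intensity of 219.8 (tumor), 227 (high doxycycline) or 250.0 (control). Intensities of different probe sets have different scales, so that levels are compared only between arrays. Above the medians of all 3 arrays lay 26 of the 57 genes, below all of them 18, and 13 crossed, as the plot of all intensities shows. On the tumor array 32 of the 57 genes (56.1%) exceeded the median, on the high-doxycycline array 30 (52.6%) and on the control array 33 (57.9%), beside 55.1%, 55.1% and 55.2% of all genes.

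**Figure D1:**
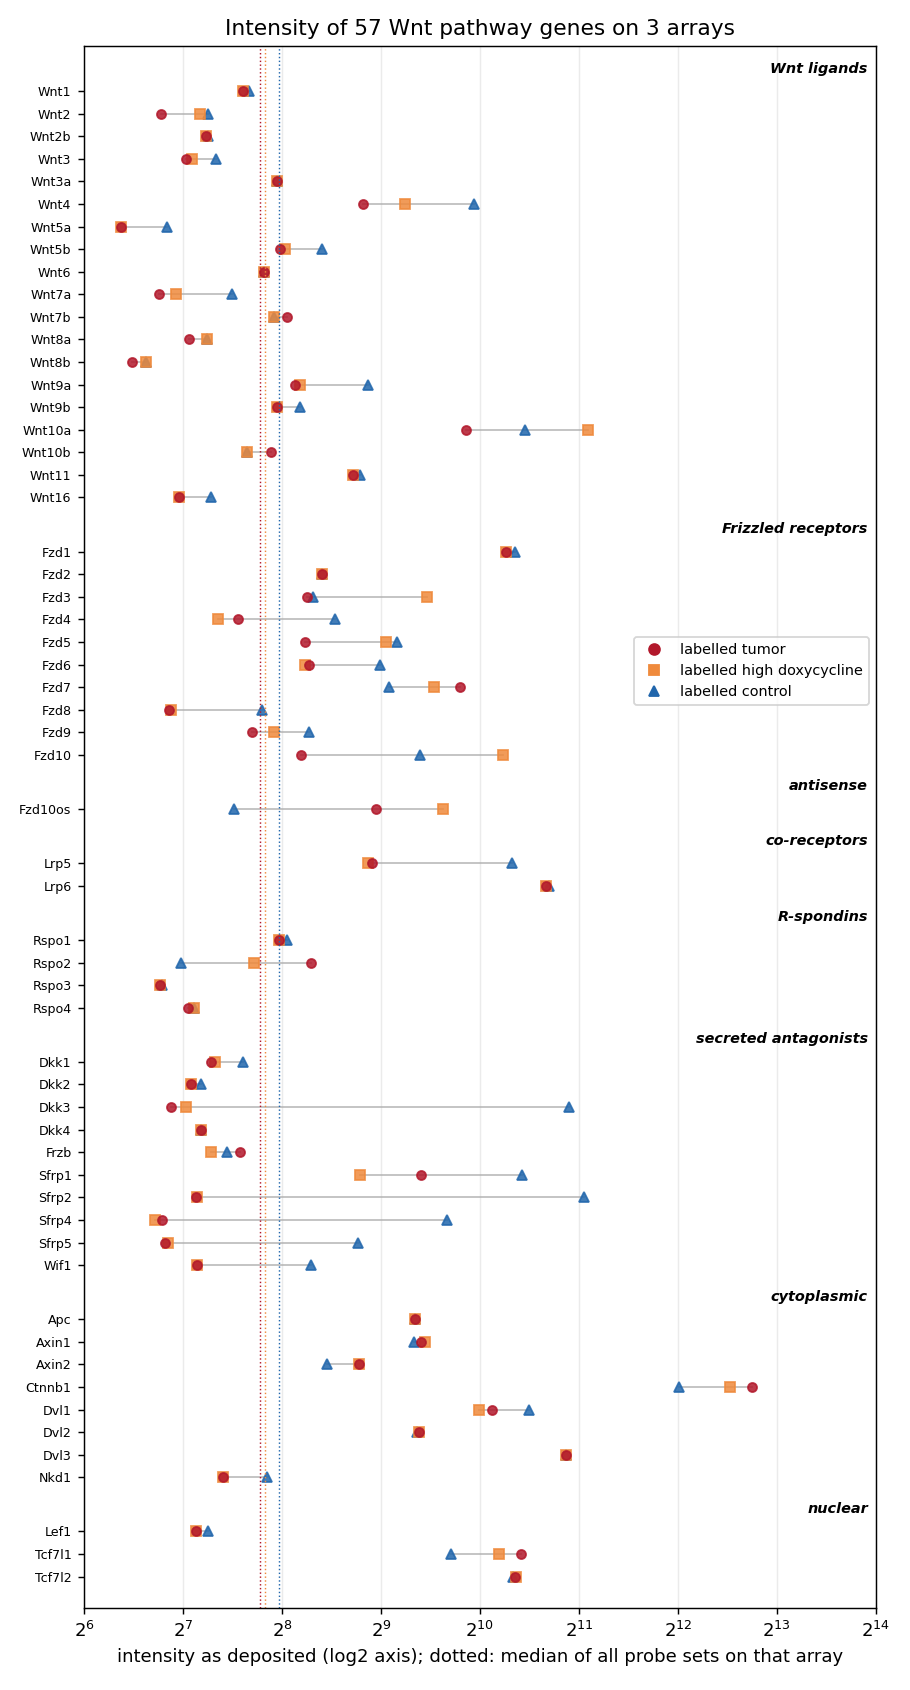
Each row is 1 gene, grouped by role, with its intensity as deposited on a log2 axis on the arrays labelled tumor (circle), high doxycycline (square) and control (triangle); dotted lines mark the array medians. The widest gaps belong to Sfrp2, Dkk3 and Sfrp4, with the control array far to the right of the other two.

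Between high doxycycline and control, 36 of the 57 genes passed the brightness filter, of which 2 were at least 2-fold brighter on the high-doxycycline array (5.56%, beside 17.5% of 11934 genes in all) and 8 were dimmer (22.2%, beside 8.46%). Taken in either direction, 10 of 36 (27.8%) differed, beside 25.9% of all genes (a share near the background). Of the 8 dimmer genes, 6 exceeded the median on the control array alone (Dkk3, Fzd4, Sfrp2, Sfrp4, Sfrp5 and Wif1). They passed only through the array where they were bright. That fixed the direction of their difference, though not its size, and their share supports nothing. Between tumor and control, 39 passed, 2 of them brighter on the tumor array (5.13%, beside 18.6% of 12011) and 9 dimmer (23.1%, beside 10.2%), which is 28.2% in either direction beside 28.7%. The same holds there for 5 of the 9 dimmer genes, the antagonists just named. Both brighter genes, Rspo2 and Fzd10os, passed only through the tumor array and could not have been dimmer there than on control. Rspo2 exceeded the median on the tumor array alone. Fzd10os was below the median on the control array and above it on the other arrays. It therefore passed only through the brighter array between high doxycycline and control as well. These 2 comparisons share the control array. Between tumor and high doxycycline, 33 passed, none was brighter on the tumor array (background 1.60% of 11212) and 3 were dimmer (9.09%, beside 1.94%, or 3.54% in either direction).

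**Figure D2:**
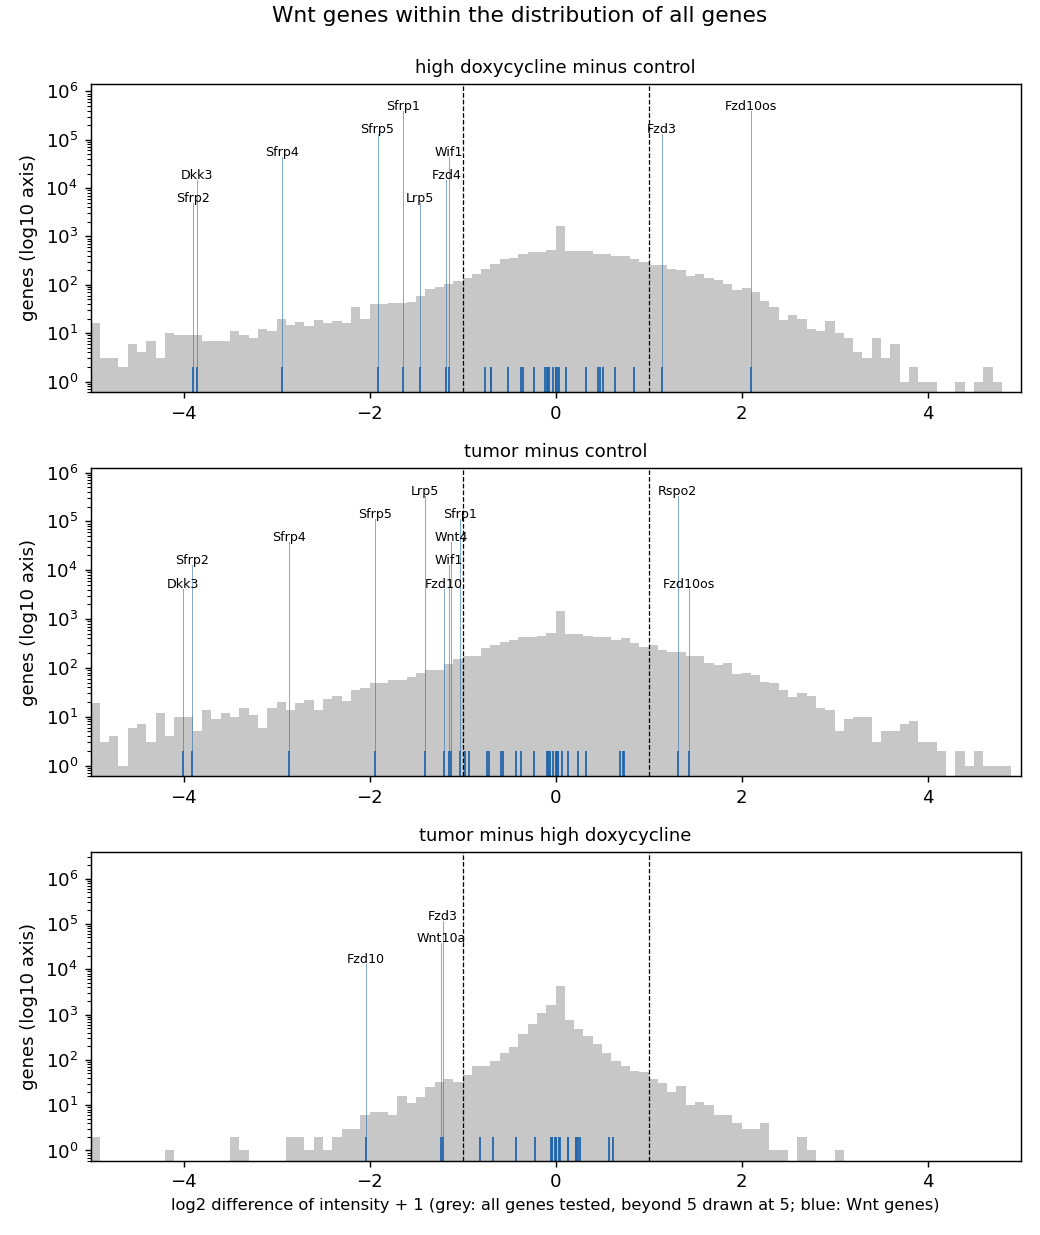
Histograms of the log2 difference over all genes that passed the brightness filter in each comparison (grey, number of genes on a log10 axis), with the Wnt genes as blue ticks and those at least 2-fold apart named; dashed lines mark 2-fold. The named genes lie mostly to the left of zero, with Sfrp2 and Dkk3 near -4 in both comparisons with the control array and Fzd10 near -2 between tumor and high doxycycline.

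Probe sets with exactly the same value on 2 arrays are common in the deposited table and give a difference of 0, which is why they are counted apart. Among the 57 genes, 11 had equal values on the high-doxycycline and control arrays (19.3%, beside 20.1% of all genes). The tumor and control arrays shared a value for 6 (10.5%, beside 15.4%). The tumor and high-doxycycline arrays did so for 22 (38.6%, beside 34.1%). Dkk4, Apc, Dvl3, Wnt3a, Wnt6 and Fzd2 had 1 value throughout, as had 2757 of all 19938 genes. No source used here says what makes values equal, and such a gene cannot be read as measured and unchanged. Error between arrays or samples cannot be measured here. How far probe sets of 1 gene disagree is another quantity, since they share the same arrays, and equal values enter it as differences of 0. The differences of such probe sets spanned a median of 0.37 (log2) between high doxycycline and control. The median span was 0.38 between tumor and control and 0.055 between tumor and high doxycycline.

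Secreted antagonists made up 6 of the 8 genes dimmer on the high-doxycycline array and 6 of the 9 dimmer on the tumor array. Over all genes, 8.46% and 10.2% were dimmer in these comparisons. All of the 6 but Sfrp1 passed through the control array alone. That fixed the direction of their difference, though not its size, so that these counts support nothing. Sfrp2, a secreted Frizzled-related protein that binds Wnts, had intensities of 141 on the tumor array, 141 on the high-doxycycline array and 2123 on the control array. Its difference was -3.90 for high doxycycline against control (14.9-fold dimmer) and -3.91 for tumor against control (15.0-fold). Dkk3, a divergent Dickkopf protein whose binding to Wnt co-receptors is unsettled, had 118 on the tumor array, 131 on the high-doxycycline array and 1910.3 on the control array. That is 14.5-fold dimmer on high doxycycline and 16.1-fold dimmer on tumor than on control. Both genes were bright on the control array and below the median on the other arrays.

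Sfrp4, another Wnt-binding Sfrp that is expressed in bone and connective tissue, had 111 on the tumor array, 105 on the high-doxycycline array and 812 on the control array. It was 7.68-fold dimmer on high doxycycline and 7.28-fold dimmer on tumor than on control. Sfrp5, an Sfrp known from adipose tissue, showed the same split at smaller size, with 113 on the tumor array, 115 on the high-doxycycline array and 436 on the control array (-1.91 for high doxycycline and -1.94 for tumor against control). Wif1, which binds Wnts through its own WIF domain, had 141 on the tumor array, 141 on the high-doxycycline array and 315 on the control array. Its difference of -1.15 holds for both comparisons, since the tumor and high-doxycycline values are equal, but with all arrays at a common median it was -0.96 for tumor against control, and with a pseudocount of 64 it was -0.88 in both comparisons, less than 2-fold.

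Sfrp1 was the one antagonist above the median everywhere, with 678 on the tumor array, 441 on the high-doxycycline array and 1378 on the control array. The high-doxycycline array was 3.12-fold dimmer than control and the tumor array 2.03-fold, and the second of these became -0.84 on the log2 scale, less than 2-fold, with the arrays at a common median and -0.96 with a pseudocount of 64. Between tumor and high doxycycline Sfrp1 differed by 0.62, brighter on tumor. The other 4 antagonists, Dkk1, Dkk2, Dkk4 and Frzb, lay below the median on every array, between 136 and 194. Frzb, an Sfrp-like Wnt antagonist of cartilage, had 191 on the tumor array, 155 on the high-doxycycline array and 174 on the control array. Apart from Sfrp1, each of the dimmer antagonists passed the filter through the control array alone, where it was bright. The direction of its difference, though not the size, was thereby fixed.

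The 6 dimmer antagonists and most lists of tissue markers were bright on the same array. Those antagonists had a median log2(intensity + 1) of 7.02 on the tumor array, 7.10 on the high-doxycycline array and 10.05 on the control array. They were picked as dimmer than on control, so that a higher median on the control array was fixed in advance. For the 9 fibroblast and matrix markers the median was 8.38 on tumor, 7.99 on high doxycycline and 12.25 on control. Summed, those 9 markers came to 3664 on the tumor array, 2429 on the high-doxycycline array and 53169 on the control array, and 8 of them exceeded the array median on tumor, 7 on high doxycycline and 9 on control. The part of these tissue genes in the antagonist differences was not tested.

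**Figure D3:**
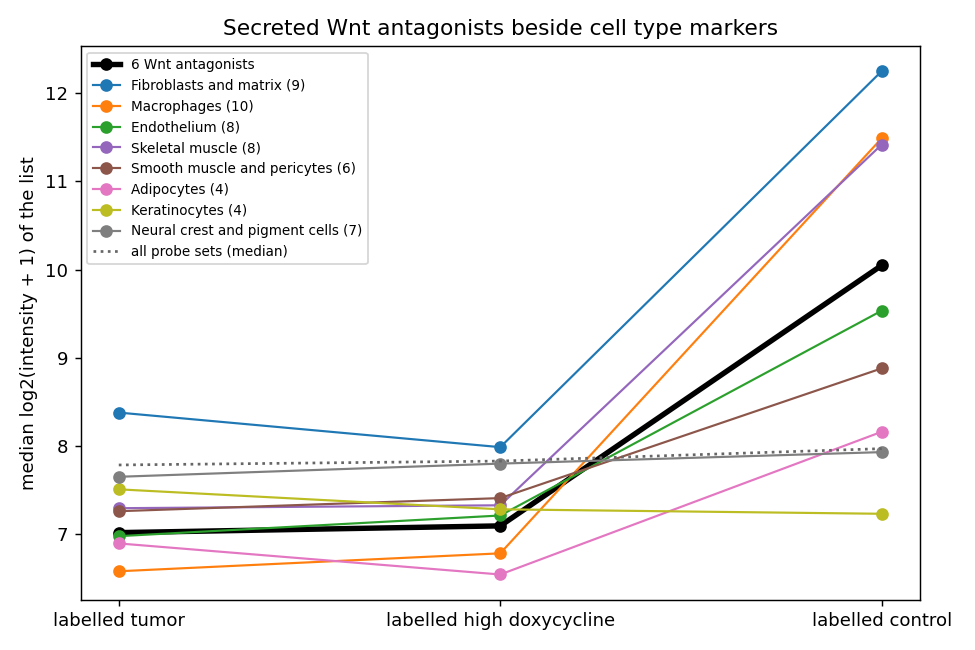
Median log2(intensity + 1) of the 6 dimmer antagonists (thick black) and of each marker list (number of genes in brackets). The arrays are those labelled tumor, high doxycycline and control. The 6 antagonists were picked as dimmer than on control, so that their higher median there was fixed in advance. The dotted line is the median of all probe sets and the connecting lines only guide the eye. The antagonist median is near 7 on the first 2 arrays and near 10 on the control array, where 6 of the marker lists are above the overall median as well; the keratinocyte list is lowest there, and the neural crest and pigment cell list stays near the overall median.

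The promoter sequences of Sfrp2, Sfrp5 and Wif1 are shown because these antagonists shared a pattern across arrays. That of Fzd10 is shown because it differed most between tumor and high doxycycline. For the other dimmer antagonists, Dkk3, Sfrp1 and Sfrp4, no promoter sequence was matched. The sequences shown therefore do not stand for the whole group. The sequences come from RefSeq (build GRCm38.p6) and are windows of 300 bases that lie mostly before the transcript start. Capitals mark 3 motifs, on either strand and at any position in the window. They are TGACG, the half-site bound by CREB and ATF1, CTTTGAT, a form of the TCF/LEF site, and TATAAA, a sequence found in TATA boxes.
Sfrp2 (chr3:83766071-83766370, plus strand): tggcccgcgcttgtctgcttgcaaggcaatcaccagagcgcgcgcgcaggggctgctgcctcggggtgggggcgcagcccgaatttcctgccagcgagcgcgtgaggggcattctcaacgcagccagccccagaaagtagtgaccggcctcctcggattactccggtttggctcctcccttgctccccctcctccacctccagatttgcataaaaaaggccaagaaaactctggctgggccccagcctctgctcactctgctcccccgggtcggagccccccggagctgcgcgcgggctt
Sfrp5 (chr19:42202203-42202502, minus strand): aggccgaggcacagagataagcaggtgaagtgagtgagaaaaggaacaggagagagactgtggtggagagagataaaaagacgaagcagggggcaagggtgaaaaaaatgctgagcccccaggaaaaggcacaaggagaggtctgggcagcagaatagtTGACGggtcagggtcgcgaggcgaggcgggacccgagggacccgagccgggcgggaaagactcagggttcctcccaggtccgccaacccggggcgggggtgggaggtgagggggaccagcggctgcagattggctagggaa
Wif1 (chr10:121033754-121034053, plus strand): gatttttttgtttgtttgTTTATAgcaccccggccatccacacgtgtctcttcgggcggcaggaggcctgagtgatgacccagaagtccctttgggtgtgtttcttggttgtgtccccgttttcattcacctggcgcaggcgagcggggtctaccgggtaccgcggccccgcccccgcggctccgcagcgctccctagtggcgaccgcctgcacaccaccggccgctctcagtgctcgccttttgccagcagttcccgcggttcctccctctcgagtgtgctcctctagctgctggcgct
Fzd10 (chr5:128600856-128601155, plus strand): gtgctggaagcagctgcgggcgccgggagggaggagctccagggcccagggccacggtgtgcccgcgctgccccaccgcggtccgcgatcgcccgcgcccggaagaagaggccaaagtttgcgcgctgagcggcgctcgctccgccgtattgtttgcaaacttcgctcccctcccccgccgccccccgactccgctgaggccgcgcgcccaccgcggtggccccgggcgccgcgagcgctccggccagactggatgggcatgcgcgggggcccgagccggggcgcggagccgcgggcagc
Sfrp5 held TGACG and Wif1 held TATAAA on the reverse strand, whereas none of these 3 motifs is in the Sfrp2 and Fzd10 windows. RefSeq promoters were matched for 38 of the 57 genes (46 windows). TGACG stood in 8 of the 46 windows, beside 20.8% of all 32851 windows. These belong to 7 genes, Ctnnb1, Dvl1, Rspo4, Sfrp5, Tcf7l2, Wnt10b and Wnt11. The full CRE site TGACGTCA, which contains the half-site, stood in Dvl1 alone (1.79% of all windows). CTTTGAT stood in 2 of the 46 windows, of Wnt11 and Wnt5b (3.73% of all windows). TATAAA stood in 8 of the 46 windows, of 8 genes (13.6% of all windows). A median of 26.5 CpG dinucleotides per window was found in the Wnt genes, beside 7 over all windows, and the Fzd10 window held 45. Promoter activity and factor binding were not measured in these samples.

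Frizzled receptors went both ways. Of 8 that passed between tumor and high doxycycline, 2 were at least 2-fold dimmer on the tumor array (1.94% of all genes). Fzd10, a Frizzled gene with restricted expression in embryos, had intensities of 292 on the tumor array, 1205 on the high-doxycycline array and 673 on the control array. The tumor array was 4.12-fold dimmer than the high-doxycycline array (-2.04 on the log2 scale) and 2.30-fold dimmer than control, and high doxycycline differed from control by 0.84. The high-doxycycline array was thus highest and the tumor array lowest. Of 11212 genes compared between tumor and high doxycycline, 26 had a difference as low as that of Fzd10 or lower. The disagreement between probe sets of a gene reached 1 on the log2 scale for 0.769% of 650 genes in that comparison, beside 20.0% of 666 genes between high doxycycline and control. Such disagreement does not measure error between arrays, and Fzd10 has a single probe set, so that the precision of its difference is not known.

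Fzd10os, a long non-coding RNA gene that neighbours Fzd10 on chromosome 5, codes for no receptor. It had 496 on the tumor array, 791 on the high-doxycycline array and 183 on the control array. Like Fzd10 it was highest on the high-doxycycline array (4.30-fold above control), but it was also 2.69-fold brighter on tumor than on control, where Fzd10 was dimmer. The control value of Fzd10os was below the median, so that against control it passed the filter only through the brighter array. Whether the probe sets of these neighbours pick up each other's transcripts was not tested.

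Fzd3, a receptor known for axon guidance and planar polarity in the nervous system, had 305 on the tumor array, 705 on the high-doxycycline array and 318 on the control array. It was 2.31-fold dimmer on the tumor array than on the high-doxycycline array, and 2.22-fold brighter on high doxycycline than on control. The tumor and control values were close, so that the high-doxycycline array alone stood apart. Fzd4, the receptor of norrin in retinal vessels, had 188 on the tumor array, 164 on the high-doxycycline array and 371 on the control array. It was 2.26-fold dimmer on high doxycycline than on control, while its difference of -0.98 for tumor against control lay just short of 2-fold. Fzd4 exceeded the median on the control array alone, and with a pseudocount of 64 its high-doxycycline difference was -0.93, less than 2-fold. The endothelial markers were split in the same direction, with 0 of 8 above the median on the tumor array, 0 on high doxycycline and 7 on control, and their part in the Fzd4 difference was not tested.

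The other Frizzled genes stayed within 2-fold in every comparison of the values as deposited. Fzd7, often linked to stem cells and tumor growth, had 893 on the tumor array, 743 on the high-doxycycline array and 541 on the control array, with differences of 0.72 for tumor and 0.46 for high doxycycline against control. Fzd5 had 301 on the tumor array, 529 on the high-doxycycline array and 572 on the control array, which places the tumor array lowest (-0.81 against high doxycycline, -0.93 against control, the second just past 2-fold under quantile normalization). Fzd6, which orients hair follicles in mice, had 309 on the tumor array, 300.1 on the high-doxycycline array and 509 on the control array, dimmer on tumor and high doxycycline than on control. Fzd1 had 1230.2 on the tumor array, 1230.2 on the high-doxycycline array and 1308 on the control array, and its small difference from control changed sign with the arrays at a common median (0.10 for tumor and 0.05 for high doxycycline) but not under quantile normalization (-0.35 and -0.37). Fzd9 had 208 on the tumor array, 242 on the high-doxycycline array and 309 on the control array, and Fzd8 stayed below the median on all arrays with 116 on the tumor array, 118 on the high-doxycycline array and 223 on the control array.

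The co-receptors differed from each other. Lrp5, known for its part in bone mass, had 482 on the tumor array, 466 on the high-doxycycline array and 1280.3 on the control array. It was 2.74-fold dimmer on high doxycycline and 2.65-fold dimmer on tumor than on control, with those 2 arrays close together. Lrp6, the other co-receptor, had 1626 on the tumor array, 1626 on the high-doxycycline array and 1656 on the control array, and its difference of -0.03 from control turned to 0.16 for tumor and 0.11 for high doxycycline with the arrays at a common median, and to -0.30 and -0.33 under quantile normalization.

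Among the 19 ligands, Wnt10a and Wnt4 differed by 2-fold or more in a comparison. Between high doxycycline and control 8 ligands passed and 0 differed by 2-fold (25.9% of all genes did). Between tumor and control 10 passed and 1 differed, Wnt4 (28.7% of all genes). Between tumor and high doxycycline 10 passed and 1 differed, Wnt10a (3.54% of all genes). Wnt10a, a ligand of skin, hair and tooth development, had 932 on the tumor array, 2189 on the high-doxycycline array and 1400.1 on the control array. The tumor array was 2.35-fold dimmer than the high-doxycycline array (-1.23), with 132 of 11212 genes as low or lower, and control lay between them (-0.59 for tumor and 0.64 for high doxycycline against control). Its chromosome 1 neighbour Wnt6 had the same intensity of 226 on all arrays.

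Wnt4, needed for kidney and female reproductive tract development, had 450.5 on the tumor array, 605 on the high-doxycycline array and 982 on the control array on its brighter probe set (-1.12 for tumor and -0.70 for high doxycycline against control). Its second probe set had 379 on the tumor array and 402 on both the high-doxycycline and the control array (-0.09 for tumor against control). The 2 probe sets therefore disagree, and as a mean over both the difference for tumor against control was -0.60, less than 2-fold. With the arrays at a common median the brighter probe set alone gave -0.94. Wnt4 is the only gene of the set with more than 1 probe set.

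No other ligand reached 2-fold, Wnt11, Wnt9a and Wnt5b included, which were above the median on every array. Wnt11, a ligand of cell movement that acts largely without beta-catenin, had 422 on the tumor array, 422 on the high-doxycycline array and 443 on the control array. Wnt9a, a ligand of joint development, had 281 on the tumor array, 289 on the high-doxycycline array and 469 on the control array, dimmer on tumor and high doxycycline than on control (-0.73 for tumor and -0.69 for high doxycycline). Wnt5b had 253 on the tumor array, 262 on the high-doxycycline array and 339 on the control array. Wnt5a, a mesenchymal ligand that mostly signals without beta-catenin, was dim, with 82.6 on the tumor array, 82.6 on the high-doxycycline array and 115 on the control array. The 9 ligands that lay below the median everywhere ranged from 82.6 to 203. Beside Wnt5a they are Wnt1, Wnt2, Wnt2b, Wnt3, Wnt7a, Wnt8a, Wnt8b and Wnt16.

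Of the R-spondins, Rspo2, which acts in limb, lung and muscle development, had 314 on the tumor array, 210.0 on the high-doxycycline array and 126 on the control array. It was 2.49-fold brighter on tumor than on control (1.31) and differed by 0.58 between tumor and high doxycycline. Only the tumor value exceeded its array median, and with a pseudocount of 64 the difference from control was 0.995, just under 2-fold. Rspo1 had 250.1 on the tumor array, 250.1 on the high-doxycycline array and 264 on the control array, close to the medians. Rspo3 and Rspo4 stayed between 109 and 138 on all arrays, below the medians.

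In each comparison 7 cytoplasmic and 2 nuclear genes passed, and none of them differed by 2-fold. Over all genes 25.9% did between high doxycycline and control, 28.7% between tumor and control and 3.54% between tumor and high doxycycline. Apc and Dvl3 are among those that passed and had equal values on all arrays. Ctnnb1, which encodes beta-catenin, had 6896 on the tumor array, 5909 on the high-doxycycline array and 4140.4 on the control array. It was 1.67-fold brighter on tumor and 1.43-fold on high doxycycline than on control, and the direction was the same under both other scalings. Tcf7l1, a TCF factor that mostly represses targets, had 1361 on the tumor array, 1167 on the high-doxycycline array and 838 on the control array, with a like order and differences of 0.70 and 0.48 from control. Tcf7l2, the TCF factor of the gut, differed by 0.03 at most from control, a value that became negative under quantile normalization (-0.23 for tumor and -0.25 for high doxycycline).

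Dvl1, one of the Dishevelled genes, had 1113 on the tumor array, 1014 on the high-doxycycline array and 1441 on the control array, whereas Dvl2 had 669.8 on the tumor array, 669.8 on the high-doxycycline array and 658 on the control array and Dvl3 had a single value of 1866 throughout. Dvl1 differed from control by -0.37 on tumor and -0.51 on high doxycycline, with the same direction under both other scalings. The small difference of Dvl2 changed sign under quantile normalization (-0.16 for tumor and -0.19 for high doxycycline). Axin1, a scaffold of the destruction complex, had 676 on the tumor array, 695 on the high-doxycycline array and 643 on the control array. Apc, the tumor suppressor in that complex, had 650.2 on all arrays.

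Axin2, Nkd1 and Lef1 are targets that Wnt signalling itself turns on in many cells. Axin2 had 440.2 on the tumor array, 440.2 on the high-doxycycline array and 349.6 on the control array, a difference of 0.33 from control on tumor and on high doxycycline. Nkd1, a Dishevelled-binding inhibitor, had 169 on the tumor array, 169 on the high-doxycycline array and 231 on the control array. Lef1 had 141 on the tumor array, 141 on the high-doxycycline array and 153 on the control array, and its difference of -0.12 turned positive under both other scalings. Each of the 3 genes had equal values on the tumor and high-doxycycline arrays. Nkd1 and Lef1 lay below the medians on every array.

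Further genes of the pathway were counted from lists that were drawn up with earlier results of these data known. In the list of 28 measured beta-catenin targets outside the 57 genes, 19 passed between high doxycycline and control with 3 brighter and 2 dimmer (17.5% and 8.46% of all genes), and 20 passed between tumor and control with 3 brighter and 2 dimmer (18.6% and 10.2% of all genes). Between tumor and high doxycycline 18 passed, 2 of them brighter on tumor and 0 dimmer (1.60% and 1.94% of all genes). Brighter than control on both other arrays were the helix-loop-helix inhibitor gene Id2, with 12807 on the tumor array, 8692 on the high-doxycycline array and 2862 on the control array, the Axin-binding Zbed3, with 2279 on the tumor array, 1854 on the high-doxycycline array and 649.7 on the control array, and Twist1, with 1232 on the tumor array, 1001 on the high-doxycycline array and 389.9 on the control array. Dimmer than control on both were the matricellular genes Ccn4, with 349.7 on the tumor array, 389.7 on the high-doxycycline array and 893 on the control array, and Ccn5, with 1268 on the tumor array, 474 on the high-doxycycline array and 2806 on the control array, although for tumor against control the difference of Ccn5 became -0.96 at a common median. Brighter on tumor than on high doxycycline were Ccn5 (1.42 on the log2 scale) and Jag1, a Notch ligand, with 713 on the tumor array, 266 on the high-doxycycline array and 468 on the control array (1.42). The intestinal stem cell gene Lgr5 had 105 on the tumor array, 106 on the high-doxycycline array and 141 on the control array, below every median. Myc had 1298 on the tumor array, 1153 on the high-doxycycline array and 2295 on the control array, and Ccnd1 had 184 on the tumor array, 191 on the high-doxycycline array and 330.2 on the control array. The targets thus went in both directions, with a median difference of -0.19 for tumor and -0.15 for high doxycycline against control, beside 0.076 and 0.083 over all genes.

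The Wnt secretion genes Wls and Vps35 were brighter on tumor and on high doxycycline than on control. All 5 measured genes of this list passed, of which 2 were brighter and 1 was dimmer on high doxycycline (17.5% and 8.46% of all genes), and 2 were brighter and 0 dimmer on tumor (18.6% and 10.2%). Wls, the carrier that takes Wnts to the cell surface, had 3928 on the tumor array, 3695 on the high-doxycycline array and 1239 on the control array, and Vps35, the retromer subunit that recycles it, had 2232 on the tumor array, 2235 on the high-doxycycline array and 539 on the control array. Vps35 was 4.14-fold and Wls 3.17-fold brighter on tumor than on control. Porcn, which attaches the lipid to Wnts, had 871 on all arrays. Trabd2b, a Wnt-inactivating protease, had 1019.5 on the tumor array, 526 on the high-doxycycline array and 1311 on the control array on its brighter probe set, and its difference of -1.32 for high doxycycline against control was -0.86 as a mean over its 2 probe sets.

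Among 15 other measured receptors and co-receptors, 1 was brighter and 3 were dimmer on high doxycycline than on control (12 passed, beside 17.5% and 8.46% of all genes), and 1 was brighter and 4 were dimmer on tumor than on control (13 passed, beside 18.6% and 10.2%). The brighter gene in both was Lgr4, a receptor of R-spondins, with 994 on the tumor array, 659.6 on the high-doxycycline array and 274 on the control array. Gpc3, a heparan sulfate proteoglycan that binds Wnts, had 622 on the tumor array, 570.2 on the high-doxycycline array and 6878 on the control array, dimmer on both other arrays than on control (-3.47 for tumor and -3.59 for high doxycycline on the log2 scale). The Dkk receptor Kremen1 had 1723 on the tumor array, 1467 on the high-doxycycline array and 3493 on the control array, and the Wnt7 cofactor Adgra2 had 205 on the tumor array, 233 on the high-doxycycline array and 540.3 on the control array. With the arrays at a common median Kremen1 differed by -0.83 between tumor and control, less than 2-fold. The tumor value of Adgra2 was below the median, so that between tumor and control it passed through the control array alone. Ptk7, a pseudokinase of planar polarity, had 269.6 on the tumor array, 371 on the high-doxycycline array and 587 on the control array, 2.17-fold dimmer on tumor than on control but -0.94 on the log2 scale at a common median.

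The list of 9 genes drawn up as other antagonists also holds Ndp (norrin), which activates Fzd4, and Cthrc1, a Wnt cofactor. In it 6 passed in each comparison with control, with 1 brighter and 2 dimmer on high doxycycline (17.5% and 8.46% of all genes) and 1 brighter and 2 dimmer on tumor (18.6% and 10.2%). Igfbp4, which binds insulin-like growth factors and can block Wnt receptors, had 535 on the tumor array, 214 on the high-doxycycline array and 5438 on the control array. It was 25.3-fold dimmer on high doxycycline and 10.2-fold dimmer on tumor than on control, and 2.50-fold brighter on tumor than on high doxycycline. The high-doxycycline value of Igfbp4 was below the median. In both comparisons with that array it therefore passed the filter through the brighter array alone and could not have differed in the other direction. Cthrc1, a secreted collagen repeat protein, had 519 on the tumor array, 909 on the high-doxycycline array and 2889 on the control array, and the membrane antagonist Tpbg had 862 on the tumor array, 862 on the high-doxycycline array and 410.4 on the control array, the reverse order, which falls just short of 2-fold under quantile normalization (0.98 for tumor and 0.96 for high doxycycline). As for the Sfrp genes, the matrix markers were bright on the same array as Igfbp4, Cthrc1 and Gpc3, and their part in these values was not tested.

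Of 17 destruction complex and Dishevelled partner genes that passed, 1 was 2-fold brighter and none was dimmer on high doxycycline than on control (17.5% and 8.46% of all genes), and likewise on tumor (18.6% and 10.2%). They were Cxxc4, with 942 on the tumor array, 1299 on the high-doxycycline array and 605 on the control array, and Cxxc5, with 3719 on the tumor array, 2677 on the high-doxycycline array and 1796 on the control array, which encode Dishevelled-binding inhibitors and were under 2-fold with quantile normalization (0.88 and 0.80). The kinase gene Gsk3b had 2887 on the tumor array, 2671 on the high-doxycycline array and 1522 on the control array. Of 14 nuclear partner genes, which all passed, 1 was brighter and 1 dimmer on high doxycycline than on control, and 2 were brighter and 1 dimmer on tumor than on control, beside the same shares of all genes. Tle3, a TCF corepressor, was dimmer with 732 on the tumor array, 1113 on the high-doxycycline array and 2410.0 on the control array, and its relative Tle4 was brighter with 1642 on the tumor array, 1136 on the high-doxycycline array and 508 on the control array. For high doxycycline against control Tle3 was -0.97 at a common median and Tle4 was 0.97 under quantile normalization, both less than 2-fold. Another corepressor gene, Tle2, had 1254 on the tumor array, 605 on the high-doxycycline array and 518 on the control array, which is 2.07-fold brighter on tumor than on high doxycycline but 0.98 on the log2 scale with a pseudocount of 64. None of the 10 planar polarity genes that passed differed by 2-fold between high doxycycline and control (25.9% of all genes did). Dimmer on tumor than on control were 2 of them (10.2% of all genes), Celsr1 and Vangl1. Celsr1 had 209.5 on the tumor array, 277 on the high-doxycycline array and 489 on the control array. Its tumor value was below the median, so that against control it passed through the control array alone. Vangl1 had 1237 on the tumor array, 2195 on the high-doxycycline array and 2495 on the control array. For tumor against control Vangl1 differed by -0.83 at a common median.

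**Figure D4:**
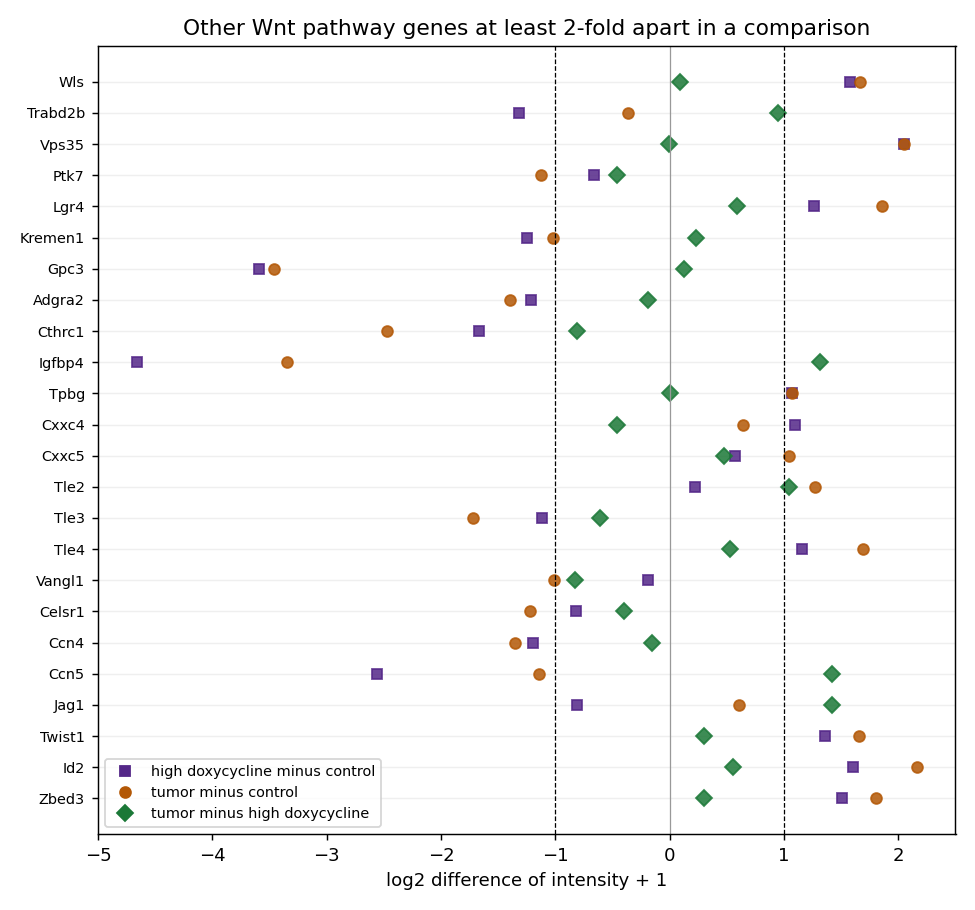
Other pathway genes that differed by at least 2-fold and passed the brightness filter in at least 1 comparison, with the log2 difference for high doxycycline minus control (square), tumor minus control (circle) and tumor minus high doxycycline (diamond); dashed lines mark 2-fold. Igfbp4 and Gpc3 lie farthest left and Vps35 and Id2 farthest right, and squares and circles share a control array.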

How the data were processed

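Per the labels, column-purified total RNA was fragmented, biotinylated and put on Affymetrix arrays of the type MoGene-1_0-st-v1. The authors' deposited table holds an intensity on a linear scale for each probe set and array; background correction, summarisation and normalization are not given in the sources used here. Gene names are those of the platform annotation (21789 probe sets with 1 symbol, 1621 with several and 5446 with none, the last 2 kinds left out). Of the named probe sets, 21698 matched the RefSeq table by Entrez number and 0 symbols needed updating. Where a gene had more than 1 probe set (999 genes), the one of highest mean intensity stood for it. Differences of log2(intensity + 1) were computed with Python 3.11.15, numpy 2.4.6 and pandas 2.3.3, and counted from a log2 size of 1 where the brighter array of the pair exceeded its median. The calculation was tested on simulated data. With 1 array per group there are no p-values, and precision is limited by the number of arrays. The genes, lists and rules were chosen with earlier results of these data known. Values on all arrays are given for Wnt genes at least 2-fold apart, for the brightest of each role and for disagreeing probe sets, and for genes of the other lists at least 2-fold apart; further genes named within 2-fold were chosen after their values were seen. Alternatives were another scaling, pseudocount, brightness filter or probe set rule.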

Additional observations from a re-analysis of the deposited data

How the results depend on the processing

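All 24 differences of named Wnt genes from 2-fold upward kept their direction under each of the 8 alternatives that gave a value, and 18 stayed at 2-fold or more in every one. The kept direction was largely fixed in advance, because these differences were picked at 2-fold or more. A pseudocount cannot turn a sign, and the common-median shift is small. The filter and probe set alternatives change the value of Wnt4 alone. Shifting the arrays to a common median adds 0.14 to each difference between high doxycycline and control, 0.19 between tumor and control and 0.04 between tumor and high doxycycline. The median difference of the Wnt genes that passed was -0.07 for high doxycycline and -0.08 for tumor against control, and it became 0.066 and 0.11 with this shift and -0.26 and -0.28 with quantile normalization. For tumor against control it was -0.37 with the brightness filter at percentile 75 and, in an alternative chosen after seeing the data, -0.30 without equal values. At percentile 75, where 15 Wnt genes were left, 0 were brighter than on the control array in either comparison. On high doxycycline 5 instead of 8 were dimmer, because fewer genes were tested. Over all genes at that percentile, 22.9% were brighter and 8.77% dimmer on high doxycycline than on control, and 24.0% and 10.4% on tumor. Against control, 6 instead of 9 were dimmer on tumor at percentile 75 and with the common-median shift, and 7 with a pseudocount of 64. Over all genes, 10.4%, 8.06% and 8.38% were dimmer on tumor in these settings. With a pseudocount of 64, 1 instead of 2 was brighter on tumor than on control (16.1% of all genes), since Rspo2 fell short. Without the antisense gene Fzd10os (chosen after seeing the data) 1 gene was brighter in each comparison with the control array. No paired analysis was possible because each group has 1 array. Signal and equal values limit the reading: 18 of the 57 genes lay below the median on all arrays, and 22 had equal values on the tumor and high-doxycycline arrays.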
